A study of Homo sapiens with 4 samples.

Results

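IRF and STAT genes encode the transcription factors through which cells answer interferons and related cytokines, and 8 of them (IRF1, IRF2, IRF3, IRF5, IRF7, IRF9, STAT2 and STAT3) were followed in ES-2 cells with and without depletion of the YAP1-MAML2 (YM) fusion. They were taken by gene symbol and by no cutoff on their values, although earlier results of these data were known, and all 8 were among the 19626 genes of the expression tables. ES-2 is an established ovarian cancer line that carries the YM fusion. Its cells received pLKO.1 lentivirus with a non-targeting shRNA (shCtl, n = 2 biological replicates) or with an shRNA against MAML2 (shM2-3, n = 2). The methods of the study do not say whether the replicates were transduced separately. By the labels, 8 h infections were made on consecutive days, and RNA was collected 96 h after the first infection. The methods of the study state shorter infections and a shorter interval. Both groups therefore carry a lentivirus, untransduced cells were not analysed here, and shM2-3 can act on MAML2 as well as on the fusion, so the part of each transcript cannot be told apart. A single shRNA in a single line was used, and no second hairpin was analysed here.

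Interferon regulatory factors (IRFs) share a DNA-binding domain that recognizes GAAA repeats, the core of the interferon-stimulated response element (ISRE). IRF3 and IRF7 are switched on by phosphorylation when a cell senses foreign or misplaced nucleic acid, and they turn on interferon genes. Secreted interferons signal through receptors and JAK kinases to STAT proteins, which enter the nucleus: with IRF9, STAT2 forms part of the complex ISGF3, which binds the ISRE, whereas STAT dimers bind the gamma-activated site (GAS). Most of these steps run on modification of proteins already present, so the mRNA level of a regulator is not a measure of its activity.

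Total estimated counts ranged from 20051083 to 23978660 per library. MAML2 itself had an RPKM (read counts scaled for transcript length and for the mapped reads of the library) of 8.61 and 8.26 in shCtl and of 3.107 and 2.998 in shM2-3, so the labels hold for the targeted gene, although its reads include those of the fusion. On a list of 9 genes that mark epithelial or clear cell carcinoma cells, with VIM, a mesenchymal marker, among them, KRT7, KRT8 and KRT18 were abundant and fell in shM2-3 (log2 fold changes of -1.26, -1.22 and -0.68). VIM was more abundant still and fell by 0.44, while 5 (PAX8, NAPSA, EPCAM, CDH1 and KRT19) stayed under an RPKM of 1 in every library. Of 9 leukocyte markers, 6 were read. Their summed RPKM was 57.6 to 58.4 in shCtl and 40.2 to 41.4 in shM2-3, nearly all of it from CD68. CD14 went the other way, from 3 and 4 counts to 42 and 37, as did CD74, from 8 and 8 to 25 and 17, both under an RPKM of 1, and PTPRC, which marks all leukocytes, had at most 3 counts in a library. LYZ stood apart in shM2-3 replicate 1, with 100 counts against 5 in replicate 2. Of 7 fibroblast markers, 5 stayed under an RPKM of 1, and the summed RPKM was 33.6 and 35.4 in shCtl and 23.6 and 23.3 in shM2-3, nearly all of it from THY1 (log2 fold change -0.56). PDGFRB was called higher, from an RPKM of 0.482 and 0.662 to 1.20 and 1.37, and passed the filter only through shM2-3. In bulk RNA, fewer cells of a type and less RNA per cell cannot be told apart. The part of other cells in the results was not tested.

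IRF1 and IRF9 were the members called higher in shM2-3 cells, and the sequences before their start sites are shown because both genes are themselves known interferon targets. In lower case are the 250 bases before the RefSeq gene start (GRCh38.p14), from 5′ to 3′ on the strand of the gene. Capitals mark the letters of a GAS (TTCNNNGAA), of an ISRE-like element (GAANNGAAA) or of a TEAD site (GGAATG), the motif of the DNA-binding partners of YAP1, each searched on both strands. The IRF1 sequence lies at chr5:132490774-132491023 on the minus strand, and that of IRF9 at chr14:24161015-24161264 on the plus strand.
IRF1: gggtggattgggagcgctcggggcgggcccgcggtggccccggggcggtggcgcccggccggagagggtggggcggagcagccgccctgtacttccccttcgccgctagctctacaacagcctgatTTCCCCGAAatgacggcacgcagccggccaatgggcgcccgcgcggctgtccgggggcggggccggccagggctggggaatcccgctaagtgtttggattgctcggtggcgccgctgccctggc
IRF9: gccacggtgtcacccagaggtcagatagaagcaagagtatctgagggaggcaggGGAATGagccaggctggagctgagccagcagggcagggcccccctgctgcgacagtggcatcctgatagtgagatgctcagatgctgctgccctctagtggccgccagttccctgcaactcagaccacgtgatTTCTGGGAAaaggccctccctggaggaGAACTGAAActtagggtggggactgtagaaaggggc

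The IRF1 window held a single GAS match, which begins 124 bases before the gene start, and no match to the ISRE-like or TEAD letters. IRF9 held 3 matches: a TEAD match beginning 196 bases before the start, a GAS match beginning 63 bases before it and an ISRE-like match beginning 36 bases before it. None of the matches overlapped. Among all 35116 windows of this length in the RefSeq table, 6.57% held the GAS letters, 6.56% the letters GAANNGAAA, 6.88% the related form GAAANNGAA and 11.9% the TEAD letters. Windows were matched for 5 of the 8 members. STAT2 held a TEAD match, STAT3 held none of the letters, and among the 4 windows of IRF5 there was 1 TEAD and 1 ISRE-like match. A match is a stretch of letters and not a measured site, and binding was not measured. The 250 bases of IRF1 were 74.4% G or C with 29 CG pairs and those of IRF9 59.6% with 4, against medians of 58% and 11 over all windows.

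IRF1, an activator of interferon, antigen presentation and growth-restraining genes, changed most. On the chromosome 5 minus strand its gene runs from 132481609 to 132490773. Its RPKM was 3.15 and 3.35 in the shCtl libraries and 14.7 and 14.1 in the shM2-3 libraries, from 315 and 341 estimated counts against 1800 and 1563. The groups were far apart, and within each group the libraries lay close together. The fitted increase was 4.64-fold, a log2 fold change of 2.21 with a standard error of 0.0744 (edgeR, Benjamini-Hochberg adjusted p = 9.84e-12). On the other strand IRF1 overlaps a protein-coding gene that was not read here under its own name, and the noncoding gene IRF1-AS1, whose libraries held 10 and 24 counts (shCtl) or 63 and 33 counts (shM2-3). Since the libraries carry no strand, reads of overlapping genes cannot be told apart.

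IRF9 gives the ISGF3 complex its DNA specificity. Its gene lies on chromosome 14 (plus strand, 24161265 to 24166565), and its RPKM was 7.22 and 8.39 in shCtl against 17.2 and 19.1 in shM2-3. No shM2-3 library came near the control range. The fitted rise was 2.44-fold (log2 fold change 1.28, standard error 0.103, edgeR adjusted p = 8.35e-08). The annotation also places a protein-coding gene of the same strand and an antisense RNA over IRF9, neither of which was read here under its own name, and their reads could be counted on IRF9. Both IRF1 and IRF9 passed the limits of an adjusted p of 0.05 and a 2-fold change, which makes 2 of the 8 members, or 2 of the 7 that were tested. Over all 12157 genes tested, 9.24% were called higher and 8.93% called lower at these limits.

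STAT2, the partner of IRF9 in ISGF3, moved much less. Its gene lies on the minus strand of chromosome 12 (56341597 to 56360107). Its RPKM was 14.9 and 15.4 in shCtl and 18.6 and 18.7 in shM2-3, and the groups did not overlap. The log2 fold change was 0.36 (standard error 0.0507, edgeR adjusted p = 2.06e-05), which is 1.29-fold. STAT3, which carries signals of IL-6, LIF and related cytokines, stood between IRF9 and STAT2 (chromosome 17, minus strand, 42313324 to 42388442). It had an RPKM of 10.6 and 9.71 in shCtl and of 17.1 and 17.6 in shM2-3. This 1.78-fold rise (log2 fold change 0.83, standard error 0.0597, edgeR adjusted p = 2.76e-08) was short of the 2-fold limit.

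**Figure D1:**
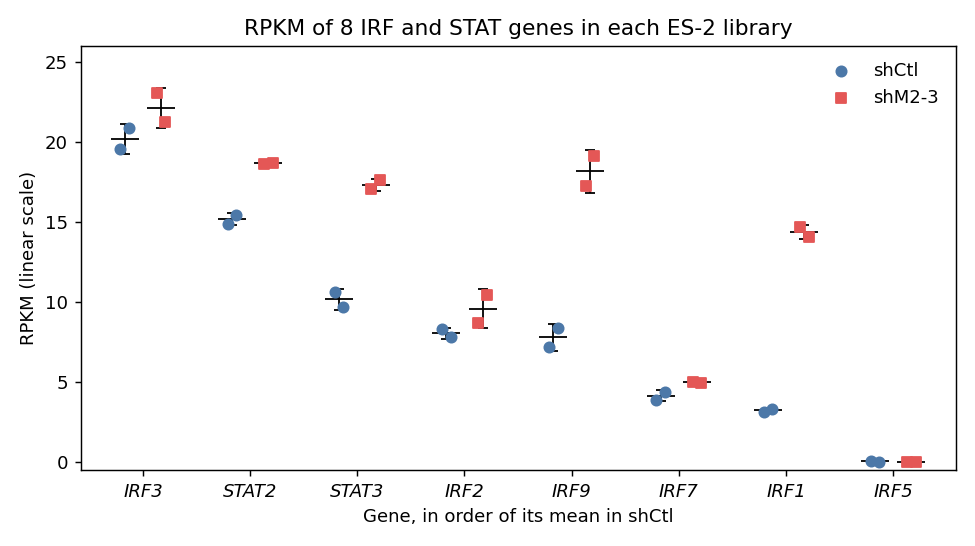
RPKM of the 8 genes in each library on a linear axis, as circles for shCtl and squares for shM2-3, with the mean as a long bar and ± SD (n = 2) as whiskers. IRF1 moved from the lowest level among the readily detected members (mean 3.25) to 14.4, and IRF9 from 7.80 to 18.2, while IRF3 stayed the highest in both groups.

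IRF2 binds the same DNA as IRF1 and is known mainly as its antagonist (chromosome 4, minus strand, 184387729 to 184474550). Its RPKM was 8.31 and 7.81 in shCtl and 8.72 and 10.5 in shM2-3, with the higher value in replicate 2. The log2 fold change of 0.32 (standard error 0.106, edgeR adjusted p = 0.0166) rested on that library: without shM2-3 replicate 2 it was 0.18 with an edgeR adjusted p of 0.1974. IRF3, the constitutive factor of nucleic acid responses (chromosome 19, minus strand, 49659572 to 49665857), was the most abundant member, at an RPKM of 19.5 and 20.9 in shCtl and 23.0 and 21.2 in shM2-3. Its log2 fold change of 0.20 (standard error 0.0688, edgeR adjusted p = 0.0193) was the smallest of the 7. Without shCtl replicate 1 it was 0.15 (edgeR adjusted p = 0.1154), and without shM2-3 replicate 1 also 0.15 (edgeR adjusted p = 0.1567). IRF3 overlaps BCL2L12 on the opposite strand, which had between 551 and 652 counts in every library.

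IRF7, the interferon-inducible amplifier of type I interferon production (chromosome 11, minus strand, 612555 to 615950), had an RPKM of 3.91 and 4.41 in shCtl and of 5.01 and 4.98 in shM2-3. With a standard error of 0.137, its log2 fold change of 0.33 passed narrowly (edgeR adjusted p = 0.0457). It no longer passed without shCtl replicate 1 (edgeR adjusted p = 0.2245), without shM2-3 replicate 1 (0.1193) or without shM2-3 replicate 2 (0.1136). With the replicate number as a block it was at an edgeR adjusted p of 0.0603. IRF7 and STAT2 thus had similar fold changes, but IRF7 had between 184 and 288 counts in a library and STAT2 between 1538 and 2350. IRF5, which acts downstream of Toll-like receptors mainly in myeloid and B cells (chromosome 7, plus strand, 128937032 to 128950038), was barely detected: 5 and 3 counts in shCtl, 1 and 0 in shM2-3. Its RPKM was at most 0.0605. The 0 in shM2-3 replicate 2 allows up to 3 counts, an RPKM of 0.0328. With exact Poisson 95% intervals for counting error of 3.45 to 15.8 for the 8 counts of shCtl and of 0.0253 to 5.57 for the single count of shM2-3, IRF5 was left out of the test for its low level, and no difference is read from so few counts.

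All 7 tested members exceeded an RPKM of 3 in every library, so none entered the test through only 1 group, and for each of the 7 the lower shM2-3 value exceeded the higher shCtl value. Such separation is common with 2 libraries against 2: of all genes tested, 38.9% lay wholly above and 47.1% wholly below the shCtl libraries. All 7 passed an edgeR adjusted p of 0.05, where 36.3% of all genes passed in the higher and 36.4% in the lower direction. Their median log2 fold change was 0.36, beside 0.00 over all genes tested. The count is less firm than it looks: between 5 and 7 members passed across the alternative settings, because the calls of IRF2, IRF3 and IRF7 came and went, whereas IRF1, IRF9, STAT2 and STAT3 passed in each of the 11.

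**Figure D2:**
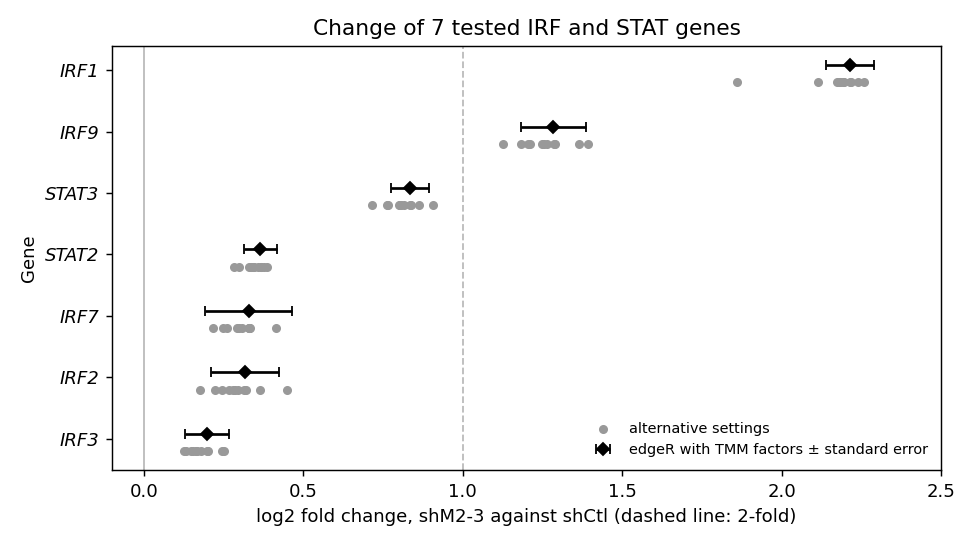
Log2 fold change of the 7 tested genes in shM2-3 against shCtl, as diamonds with the standard error from edgeR, and below each diamond its value under 11 alternative settings as grey points. IRF1 stayed between 1.86 and 2.26 and IRF9 between 1.12 and 1.39, right of the dashed 2-fold line, and STAT3 stayed left of it at 0.71 to 0.91.

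The order of the levels was rearranged. In shCtl cells the mean RPKM ran from IRF3 (20.2) over STAT2 (15.2), STAT3 (10.2), IRF2 (8.06), IRF9 (7.80), IRF7 (4.16) and IRF1 (3.25) down to IRF5. The libraries of neighbours in this order did not overlap, with the exception of IRF2 and IRF9. In shM2-3 cells IRF3 (22.1) was followed by STAT2 (18.7), IRF9 (18.2) and STAT3 (17.3), of which neither STAT2 and IRF9 nor IRF9 and STAT3 were separated by their libraries. IRF1 (14.4) came next, now above IRF2 (9.59) and IRF7 (4.99). Added up, the 8 members had an RPKM of 67.7 and 70.0 in shCtl and of 104 and 106 in shM2-3. IRF1 took 4.64% and 4.78% of that sum in shCtl and 14.1% and 13.3% in shM2-3. The share of STAT2 went the other way, from 22.0% and 22.1% to 17.8% and 17.6%, although its own level was higher.

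Ratios within a library do not depend on how libraries were scaled. The level of a ratio does depend on the gene lengths used for RPKM and on reads of overlapping genes. Equal RPKM is therefore not a measured equality of transcript numbers. The ratio of IRF1, the activator, to IRF2, its antagonist, was 0.379 and 0.429 in shCtl and 1.69 and 1.35 in shM2-3. Its mean was 3.76-fold higher, and the RPKM of IRF1 passed from below to above that of IRF2. For the ISGF3 partners, the ratio of IRF9 to STAT2 was 0.484 and 0.543 in shCtl and 0.925 and 1.02 in shM2-3, close to equal RPKM. STAT3 relative to STAT2 went from 0.714 and 0.629 to 0.916 and 0.941. None of the 3 ratios overlapped between groups, but with 2 libraries against 2 the smallest two-sided exact permutation p is 0.333, and no test was made.

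**Figure D3:**
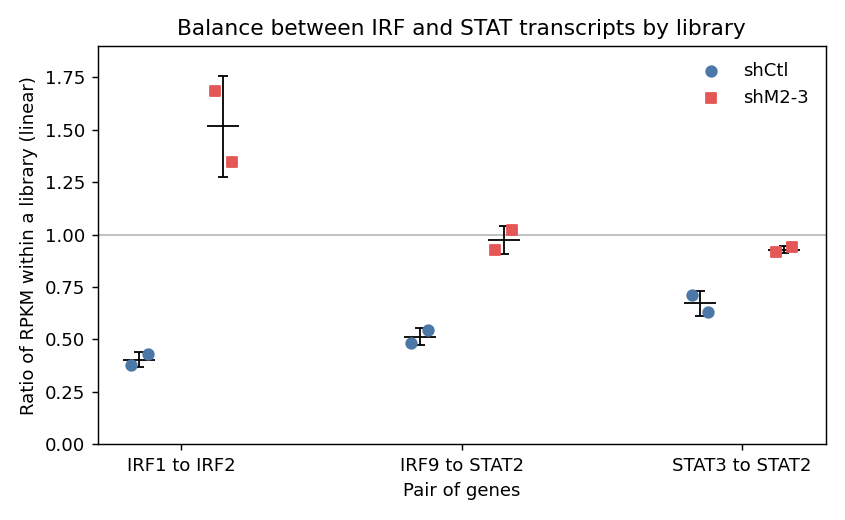
Ratio of RPKM between a pair of genes within each library (circles shCtl, squares shM2-3), with the mean and ± SD (n = 2), and a line at equal RPKM. IRF1 to IRF2 crossed that line in both shM2-3 libraries, and IRF9 to STAT2 lay just below it in replicate 1 (0.925) and just above it in replicate 2 (1.02).

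The genes whose values over the 4 libraries were most like those of IRF1, by Euclidean distance in mean-centred log2(RPKM + 0.1), were ATP9A (0.0421), PHC2 (0.0439) and SH3TC2 (0.0471), with log2 fold changes of 2.23, 2.15 and 2.49. For IRF9 they were PTPN21 (0.0371), PHTF1 (0.0676) and CDC42EP2 (0.0831). With 4 libraries in 2 groups, this likeness is mostly a like fold change.

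Of 6 further IRF and STAT genes, 3 passed the RPKM filter and were tested, all of them STAT genes. STAT6, the factor of IL-4 signalling, rose (log2 fold change 0.47), from an RPKM of 19.1 and 17.1 to 23.97 and 24.12. STAT5B fell by 0.76 on the log2 scale, from 6.31 and 6.36 to 3.71 and 3.42. STAT5A, its close relative, had a log2 fold change of -0.50 and an edgeR adjusted p of 0.0382, which missed 0.05 when any single library was left out (values from -0.58 to -0.42, edgeR adjusted p from 0.0646 to 0.1689). STAT5A and STAT5B are close copies of each other. The authors dropped ambiguous reads, and how this affected the counts of each gene was not tested. IRF4, a lineage factor of lymphocytes, had at most 2 counts in a library. The corepressors named for IRF2 binding differed as well: IRF2BPL was called higher (log2 fold change 1.21), IRF2BP2 rose by less (0.36) and IRF2BP1 had a value of 0.04 that did not pass.

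Upstream of the STAT proteins, 8 of 10 interferon receptor and JAK genes were tested, of which 4 rose, 0 fell and 4 did not pass, beside the 36.3% and 36.4% of all genes that rose and fell. IFNGR2, the signalling chain of the interferon gamma receptor, had an RPKM of 18.7 and 18.3 in shCtl and of 50.0 and 47.7 in shM2-3 and was called higher (log2 fold change 1.47, standard error 0.0524). IFNAR1, a chain of the type I interferon receptor, was called higher at 1.11 (0.90, short of 2-fold, with limma on log2(RPKM + 1)), from an RPKM of 4.65 and 4.41 to 9.42 and 9.23. The partner chains differed: IFNGR1 rose by less (0.77), and IFNAR2 did not pass (0.16). Of the kinases, TYK2 rose (0.55), whereas JAK1, with a value of -0.02 at a mean RPKM of 45.0 and 42.4, and JAK2 at -0.05 did not pass. Of 10 interferon genes on the list, 8 were not among the 19626 genes with values, which includes IFNB1 and IFNG. Of the others, IFNE had 4 and 11 counts under shCtl but 38 and 25 under shM2-3. IFNL1 was at 0 in 3 libraries with 6 counts in shM2-3 replicate 2, and neither IFNE nor IFNL1 passed the RPKM filter.

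The cytokine side of STAT3 moved one way among the genes that passed the RPKM filter. All 7 tested genes of 14 in the IL-6 family list rose, 6 of them past the 2-fold limit, with a median log2 fold change of 1.34, where 36.3% of all genes rose and 9.24% were called higher. All 7 exceeded an RPKM of 1 in both groups. IL6ST (gp130), the receptor chain shared by the family, had an RPKM of 12.2 and 11.6 in shCtl and of 30.0 and 28.0 in shM2-3 (log2 fold change 1.35, standard error 0.0478). LIF, a ligand of the family, rose from 10.3 and 10.9 to 35.7 and 35.2 (1.81), and CLCF1 had a log2 fold change of 1.74. The receptors LIFR (1.02) and OSMR (0.52) had the smallest values, and LIFR fell short of 2-fold in 6 of the 11 settings, among them without shCtl replicate 2 (0.98), without shM2-3 replicate 1 (0.93) and when scaled by total counts (0.99). The cytokine IL6 and its own receptor chain went the other way, but both stayed under an RPKM of 1 and so were left out by the filter. IL6 had 23 and 26 counts with shCtl but 14 and 18 with shM2-3, and IL6R had 98 and 146 with shCtl but 29 and 18 with shM2-3.

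Among genes that sense nucleic acid or activate IRF3 and IRF7, 14 of 20 listed symbols were tested: 8 rose, 4 fell and 2 did not pass, where 36.3% of all genes rose and 36.4% fell. TBK1 and IKBKE encode the kinases that phosphorylate IRF3 and IRF7. IKBKE was called higher, at an RPKM of 2.65 and 2.18 in shCtl and of 6.38 and 7.27 in shM2-3 (log2 fold change 1.57, standard error 0.126), and TBK1 rose by less (0.34). TLR3, a receptor for double-stranded RNA, was called higher at 2.79 from 13 and 11 counts to 108 and 77, but entered the test only through shM2-3 replicate 1, the library above an RPKM of 1, and without it 7 of 13 genes of this list rose. STING1, the adaptor of cytosolic DNA sensing, fell by 0.89 from an RPKM of 16.1 and 18.7 to 9.57 and 8.29, and its upstream enzyme CGAS had at most 2 counts in a library. IRAK4, a kinase of Toll-like receptor signalling, fell by 0.80.

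Of 15 tested negative regulators, the brakes on the pathway, 9 rose, 5 fell and 1 did not pass, beside the same shares of 36.3% and 36.4% over all genes. Without SOCS1, which passed the filter only through shM2-3, 8 of 14 rose. SOCS1, an inhibitor of JAK kinases that is itself an interferon-inducible gene, was called higher. It went from 6 and 19 counts to 236 and 198, a log2 fold change of 3.96 with a standard error of 0.327 (edgeR adjusted p = 1.16e-07). The size rested on the few control counts: it was 3.38 without shCtl replicate 1 and 4.99 without shCtl replicate 2, and only the shM2-3 libraries exceeded an RPKM of 1. SOCS6, of the same family, rose by 0.76 on the log2 scale. SOCS3, the brake on gp130 and STAT3, fell by 0.68, from an RPKM of 20.1 and 21.0 to 12.56 and 11.98, whereas STAT3 and IL6ST rose. SOCS2 was called lower at -1.25, and PTPN2, a phosphatase of STAT and JAK proteins, fell by 0.69. USP18, which blocks the type I receptor, had a log2 fold change of -0.49 (edgeR adjusted p = 0.0347). This missed 0.05 without shCtl replicate 1 (-0.39, edgeR adjusted p = 0.1967), without shM2-3 replicate 1 (-0.44, 0.1322) and without shM2-3 replicate 2 (-0.54, 0.0696).

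Known targets of the factors were read by list, and the lists were not tested against each other. Over all genes, 9.24% were called higher and 8.93% lower, and 36.3% rose and 36.4% fell by adjusted p alone. Of 23 tested ISGF3 targets, 15 were called higher and 0 lower, and 19 rose and 2 fell by adjusted p alone, with a median log2 fold change of 1.19. Of the 15, 5 (IFIT2, OAS2, IFI27, XAF1 and BST2) passed the filter only through the shM2-3 libraries, where they were high, which leaves 10 that also passed it in shCtl. Over the 18 targets that did, 14 rose and the median was 1.04. XAF1 (3 and 4 counts, then 187 and 140) and IFI27 (8 and 2 counts, then 142 and 134) had the highest values, though IFI27 depended on its control library (5.90 without shCtl replicate 1, 3.93 without shCtl replicate 2). IFI44 fell by 0.61. HERC6 had a log2 fold change of -0.47 (edgeR adjusted p = 0.0485), which missed 0.05 without shCtl replicate 1 (0.2808) and without shM2-3 replicate 1 (0.3322). Of 22 tested IRF1 targets, 6 were called higher and 1 lower, 16 rose and 3 fell, and the median was 0.49. Of those 6, 2 (IDO1 and CASP1) passed the filter only through shM2-3, as did GBP3, and of the 19 others 13 rose, with a median of 0.42. CASP1, an inflammatory protease, had 4 and 14 counts and then 54 and 59 (log2 fold change 2.499, from 1.88 without shCtl replicate 1 to 3.63 without shCtl replicate 2). IDO1, the tryptophan-degrading enzyme, went from 2 and 3 counts to 215 and 213, a ratio of 75.7 per total count with an exact 95% counting interval of 32.2 to 234. CD274, which encodes PD-L1 and is a known IRF1 target, was called lower, from an RPKM of 4.46 and 4.25 to 1.18 and 1.23 (log2 fold change -1.79), and HLA-E fell by 0.91. Of 19 tested STAT3 targets, 6 were called higher and 3 lower, and 10 rose and 7 fell, with a median of 0.36. Without the 2 that passed the filter only through shM2-3 (SERPINA3 and MUC1), the median over 17 was -0.087, so its sign rested on them. SERPINA3, an acute-phase protease inhibitor, went from 14 and 19 counts to 1601 and 1557, and VEGFA, a growth factor for blood vessels, had a log2 fold change of 2.72. MYC (-2.90) and PIM1 (-1.96) were called lower. The 5 NF-kB subunit genes, whose products act with IRFs at many promoters, had no call at 2-fold, and ranged from -0.54 (NFKB2) to 0.74 (RELB). REL (-0.28) and NFKB1 (0.21) had smaller values, and REL missed an edgeR adjusted p of 0.05 without shCtl replicate 2 (0.0828) or shM2-3 replicate 2 (0.1946), and NFKB1 without shCtl replicate 1 (0.0546) or shM2-3 replicate 1 (0.1087).

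**Figure D4:**
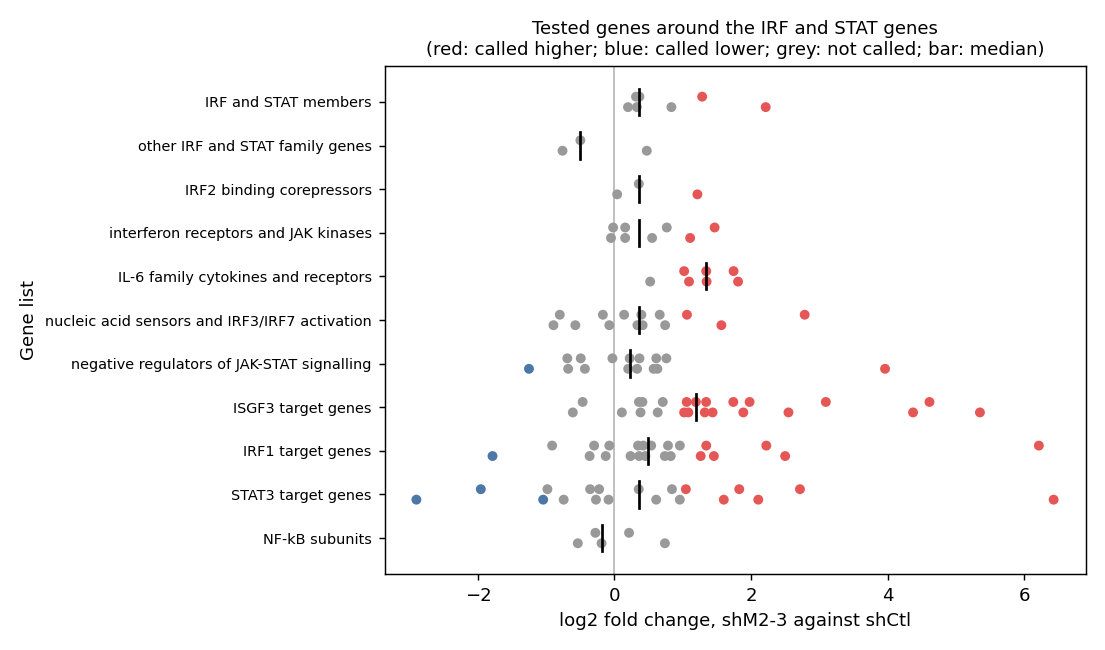
Log2 fold change (shM2-3 against shCtl) of each tested gene by list, with red points called higher, blue points called lower, grey points not called and a bar at the median of the list. ISGF3 targets (median 1.19, or 1.04 without those that passed the filter only through shM2-3) and the IL-6 family (1.34) lay mostly to the right of 0, while STAT3 targets spread from -2.90 to 6.43.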

How the data were processed

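RNA from 4 samples of ES-2 cells (2 biological replicates per group) was sequenced as non-strand-specific paired ends of 150 bases. The authors aligned reads to hg38 with HISAT2 2.0.4, dropped ambiguous and poorly mapped reads and quantified RefSeq genes in Partek 7.18. The deposited estimated counts are not normalized, with 42.4% to 48.6% whole values, and the deposited RPKM values were scaled by the authors for gene length and mapped reads.

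Estimated counts were rounded and compared in R 4.3.3 with edgeR 4.0.16 (TMM, quasi-likelihood test, Benjamini-Hochberg adjustment) over genes whose RPKM exceeded 1 somewhere in the 4 libraries. The standard error is the log2 fold change divided by the root of F. Calls needed a 2-fold change and an adjusted p up to 0.05, "rose" and "fell" only the latter. Intervals cover counting error only. The fits were tested on simulated data, with large changes placed only in genes that were not at low counts. That does not bear on small changes or on genes with few counts. Alternatives used DESeq2 1.42.0, limma 3.58.1, other scaling, filters and fold limits, blocking by replicate number, and omission of each library in turn.

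The members and gene lists were chosen with earlier results of these data known. The text names the members, their direct regulators, the 2 lowest and 2 highest tested genes of a list and the nearest profiles. IL6, IL6R, IFIT2, OAS2, GBP3, MUC1, BST2, IFNB1, IFNG, CD14, CD74, PTPRC, CGAS, IRF4, IFNE, IFNL1, the overlapping genes and the letters GAANNGAAA were chosen after values or sequences were seen, and 3 genes, taken off the lists after their counts were seen, are not reported here. Positions come from RefSeq on GRCh38.p14 and overlaps from GENCODE, both on the genome build of the authors. Motifs were matched as letters, with no score.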

Additional observations from a re-analysis of the deposited data

How the results depend on the processing

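Each log2 fold change was computed again under 11 settings, and IRF1, IRF9, STAT2 and STAT3 kept their direction and an adjusted p of 0.05 or less in all of them. IRF2 lost that call in 3, IRF3 in 6 and IRF7 in 8 of the 11, with the direction kept. IRF7 was at an adjusted p of 0.1383 under DESeq2 and 0.0724 under edgeR with total counts, and IRF3 at 0.0673 and 0.0553. The cause was not tested. The number of members called at both limits was 2 in each setting but the 1.5-fold limit, where STAT3 made it 3. At 1.5-fold, 2296 genes were higher and 2302 lower over all genes, and limma on log2(RPKM + 1), which shrinks low genes by construction, called 596 higher and 724 lower. There the 2-fold calls of IFNAR1 (0.90), TLR3 (0.85), SOCS2 (-0.99), CASP1 (0.76), PDGFRB (0.54), PTPN21 (0.79) and LIFR (0.84) were lost. This covers only the 67 tested genes named by rule. IFIT2, OAS2, BST2, GBP3 and MUC1 are not among them, and their alternatives were not examined. Labels number the replicates 1 and 2 in both groups, but do not say what the numbers share. The deviations of same-numbered libraries had a correlation of -0.00729, and with the replicate block 1123 genes were higher, 1079 lower and 6 members passed by adjusted p. Of the 67 tested genes named by rule, 3 changed sign: JAK1, IRF2BP1 and LYZ. JAK1 went from -0.0476 without shCtl replicate 1 to 0.00749 without shCtl replicate 2. IRF2BP1 was at -0.0262 with limma on log2(RPKM + 0.1) and -0.0243 on log2(RPKM + 1). LYZ went from -2.30 without shM2-3 replicate 1 to 1.83 without shM2-3 replicate 2. Total counts in place of TMM moved the median of all genes from 0.00 to -0.04. IRF5, IFNL1 and other genes at a few counts are poorly measured at the totals of these libraries. Whether deeper libraries would change this was not tested.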
